A study of Mus musculus with 2 samples.

Results

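The 9 genes described here encode the CD3 chains and the first enzymes and scaffolds that act on them when the T cell receptor (TCR) is engaged. They were chosen by gene symbol: Cd3d, Cd3e, Cd3g and Cd247 for the chains, Lck, Fyn and Zap70 for the kinases, and Lat and Lcp2 for the scaffold adaptors. All 9 were found among the 23167 symbols measured. RNA from which ribosomal RNA had been removed was sequenced as 1 library of naive CD4 T cells and 1 library of naive CD8 T cells, so the differences have no replicates behind them and no p-value is given. Both cell types were sorted by flow cytometry from spleen and lymph nodes of Foxp3-GFP mice on the C57/BL6 background, reporter animals whose regulatory T cells are green. The gate was the same for both: high CD62L, low CD44, no CD25 and no Foxp3-GFP. The age of the mice and the number that gave cells are not stated.

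The antigen-binding TCR chains have almost no tail inside the cell, and they signal through the CD3 chains they are assembled with. CD3 gamma and CD3 delta each pair with CD3 epsilon, and the zeta chain, the product of Cd247, pairs with itself; all carry the tyrosine motifs called ITAMs. The kinase Lck, held by the CD4 or CD8 coreceptor, phosphorylates the ITAMs, with Fyn as a second kinase of the Src family, and ZAP-70 binds to them through its SH2 domains. ZAP-70 then phosphorylates LAT and SLP-76 (the product of Lcp2), on which phospholipase C gamma and the other effectors assemble.

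The promoters of the CD3 chains and of Lck are printed first, because 3 of the chain genes stand side by side on mouse chromosome 9 and Lck has a pair of start sites. Each window runs from 250 bases before to 50 bases after a start site of RefSeq on the build GRCm38.p6, 5′ to 3′ on the gene's strand, 300 bases in all. The expression files use the build mm9 and carry no coordinates. The start sites of Cd3g and Cd3d lie 1355 bases apart and point away from each other, and that of Cd3e lies 27825 bases beyond that of Cd3d. The start sites of Lck lie 15269 bases apart. The distal one is known as that of mature T cells and the proximal one as that of thymocytes, and a value per gene does not tell their transcripts apart. Capitals mark 6 short cores searched on both strands, and runs that touch can hold more than 1 of them. The ETS transcription factors are known to bind AGGAAG and the RUNX factors TGTGGT in their target promoters. The E box of the E proteins was searched as CAGGTG, and the site of the factors TCF and LEF was searched as CTTTGA in the same way. The TATA box was searched as TATAAA, and the GC box of SP factors was searched as GGGCGG in the same way.
Cd3g at chr9:44980382-44980681, minus strand: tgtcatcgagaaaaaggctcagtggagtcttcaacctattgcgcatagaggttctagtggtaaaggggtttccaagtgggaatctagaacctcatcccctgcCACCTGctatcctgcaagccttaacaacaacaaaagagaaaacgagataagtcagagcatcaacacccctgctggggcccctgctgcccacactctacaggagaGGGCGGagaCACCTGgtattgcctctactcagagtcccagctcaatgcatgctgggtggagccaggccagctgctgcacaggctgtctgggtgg
Cd3d at chr9:44981536-44981835, plus strand: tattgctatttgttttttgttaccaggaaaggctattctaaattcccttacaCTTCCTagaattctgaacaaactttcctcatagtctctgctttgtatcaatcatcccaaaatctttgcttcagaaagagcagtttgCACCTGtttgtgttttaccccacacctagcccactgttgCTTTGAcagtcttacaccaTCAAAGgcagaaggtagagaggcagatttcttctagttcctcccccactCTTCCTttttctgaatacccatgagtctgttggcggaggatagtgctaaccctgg
Cd3e at chr9:45009562-45009861, minus strand: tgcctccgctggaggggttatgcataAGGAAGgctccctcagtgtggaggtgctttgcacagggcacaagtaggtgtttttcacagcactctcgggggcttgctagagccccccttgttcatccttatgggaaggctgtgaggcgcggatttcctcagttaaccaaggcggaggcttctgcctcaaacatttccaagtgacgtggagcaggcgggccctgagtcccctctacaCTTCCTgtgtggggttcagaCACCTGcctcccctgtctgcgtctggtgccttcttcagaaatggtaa
Cd247 at chr1:165788431-165788730, plus strand: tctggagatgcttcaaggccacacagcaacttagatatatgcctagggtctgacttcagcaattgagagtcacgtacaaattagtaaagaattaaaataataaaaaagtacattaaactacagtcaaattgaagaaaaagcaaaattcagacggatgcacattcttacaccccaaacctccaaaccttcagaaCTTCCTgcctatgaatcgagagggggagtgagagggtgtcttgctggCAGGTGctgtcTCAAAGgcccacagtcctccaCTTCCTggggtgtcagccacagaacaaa
Lck, distal start site, at chr4:129573592-129573891, minus strand: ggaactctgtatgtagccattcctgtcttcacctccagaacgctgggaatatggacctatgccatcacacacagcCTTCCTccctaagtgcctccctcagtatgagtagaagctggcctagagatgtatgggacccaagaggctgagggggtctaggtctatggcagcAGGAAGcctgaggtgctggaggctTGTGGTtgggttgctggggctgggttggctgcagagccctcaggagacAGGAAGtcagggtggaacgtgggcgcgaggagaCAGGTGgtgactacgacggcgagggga
Lck, proximal start site, at chr4:129558323-129558622, minus strand: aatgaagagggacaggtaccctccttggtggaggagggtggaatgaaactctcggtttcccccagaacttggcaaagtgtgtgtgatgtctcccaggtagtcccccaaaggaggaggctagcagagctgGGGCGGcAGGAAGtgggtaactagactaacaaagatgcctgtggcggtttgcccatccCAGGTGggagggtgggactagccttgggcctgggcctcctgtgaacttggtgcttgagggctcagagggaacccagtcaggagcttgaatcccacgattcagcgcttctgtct

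The 4 chain promoters share an E box core and none has the TATA core. The ETS core stood 2 times in each of the Cd3d, Cd3e and Cd247 windows and was not among the letters of the Cd3g window. Over all 12 windows of the 9 genes, 9 held the ETS core, against 35.4% of all 32851 mouse promoter windows of the same length. The E box core was in 8 of the 12, against 20.2% of all windows, and the TATA core in 0 of the 12, against 13.6%. The TCF and LEF core was in 5 of the 12, against 16.0% of all windows, the RUNX core in 3, against 16.8%, and the GC box core in 3, against 35.7%. Zap70 has 3 of the 12 windows and Lck 2, so the windows are not separate genes. The number of CpG dinucleotides, the sites at which cytosine methylation and hydroxymethylation are mostly found, ran from 0 in the Lcp2 window and 1 in the Cd3d window to 31 in the Fyn window, with a median of 6 over the 12 windows and of 7 over all mouse windows. These are matches of letters and describe the windows, without showing that a factor binds there.

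None of the 9 genes differed by 2-fold or more between naive CD4 and naive CD8 cells, and all were highly expressed in both. Their levels ran from 86.3 RPKM (reads per kilobase of gene, scaled to the reads of the library) for Lcp2 to 673 for Cd3g in naive CD4 cells, and from 77.4 for Lcp2 to 694 for Cd3g in naive CD8 cells. Each gene stood above at least 92.3% of the 10228 compared genes, those at 1 RPKM or more in at least 1 library. Differences are given as log2 of the CD4 over the CD8 value after adding 1 RPKM to each, and an absolute difference of 1 or more counts as at least 2-fold. By that rule 0 of the 9 passed, while of all compared genes 5.48% passed, 2.41% higher in CD4 and 3.07% higher in CD8. Of the 755 compared genes with a mean level at least as high as that of Lcp2, 5.96% passed, 1.46% higher in CD4 and 4.5% higher in CD8. The median difference of the 9 was 0.10, beside 0.08 over all compared genes and 0.01 over those 755. Their largest absolute difference, 0.29 for Cd3d, was one that 57.0% of compared genes did not exceed.

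**Figure D1:**
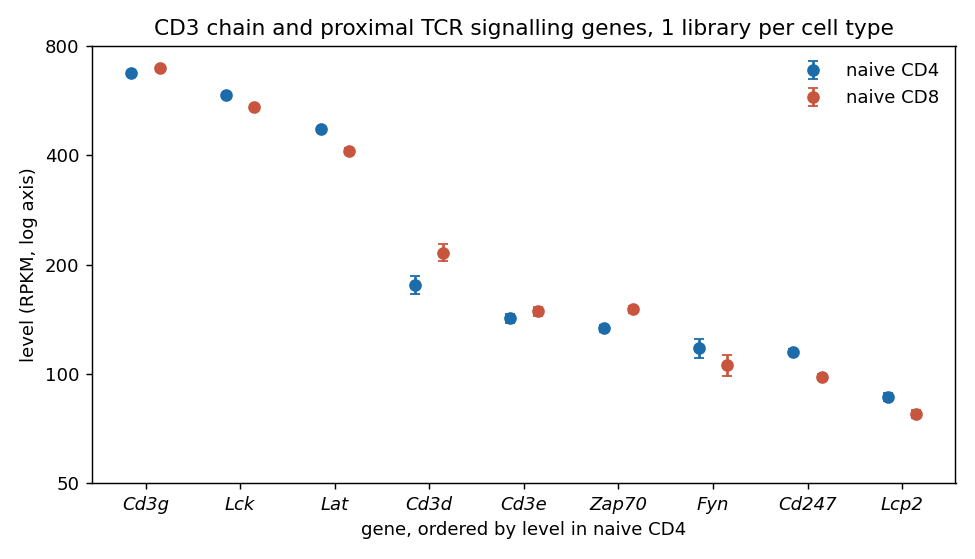
Level of each of the 9 genes (RPKM, log axis) in naive CD4 (blue, left of each pair) and naive CD8 (red, right) cells, 1 library each. Bars are 95% counting intervals, hidden by the point where they are narrow. In both libraries Cd3g, Lck and Lat lie above the 400 RPKM mark and the other genes between 77.4 and 216 RPKM.

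Among the CD3 chains, Cd3g was the highest of all 9 genes. It encodes the gamma chain and was at 673 RPKM in naive CD4 and 694 RPKM in naive CD8 cells, a ratio of CD4 over CD8 of 0.971 (95% counting interval 0.950 to 0.992). Ratios are of RPKM as deposited, and their intervals come from the fewest whole reads that the values allow. Such intervals hold the counting error alone, and what they compare is a pair of libraries rather than the cell types. Cd3d, for the delta chain, was at 176 RPKM in naive CD4 and 216 RPKM in naive CD8 cells, a ratio of 0.815 (0.753 to 0.882). It was the gene of the 9 that lay farthest toward CD8. Cd3e, for the epsilon chain that partners both gamma and delta, was at 142 RPKM in naive CD4 and 149 RPKM in naive CD8 cells, a ratio of 0.958 (0.921 to 0.996). Cd247 lay on the other side, at 115 RPKM in naive CD4 and 98.3 RPKM in naive CD8 cells, a ratio of 1.17 (1.14 to 1.20). It was the lowest of the chain genes in both libraries and, of the 9, lay farthest toward CD4.

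The make-up of the chain transcripts was alike in the 2 libraries apart from delta and zeta. Of the summed RPKM of the 4 genes, Cd3g made up 60.8% in CD4 and 60.0% in CD8, and Cd3e 12.9% in both. Cd3d made up 15.9% in CD4 and 18.6% in CD8, and Cd247 10.4% in CD4 and 8.50% in CD8. A ratio between 2 genes of the same library does not depend on how the libraries are scaled. Cd3e stood at 0.211 of Cd3g in CD4 and 0.214 in CD8, a ratio of ratios of 0.987 (0.944 to 1.03). Cd3d stood at 1.52 times Cd247 in CD4 and 2.19 times in CD8, a ratio of ratios of 0.695 (0.640 to 0.755), the farthest from 1 of all 36 pairs among the 9 genes.

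At the smallest library totals that the values allow, the levels of Cd247 and Lck rest on lengths above that of any single annotated transcript of theirs. The smallest length at those totals is 4594 bases for Cd247, against 2957 bases for its longest transcript in GENCODE M21, and 2285 bases for Lck, against 2185. The true totals can be whole multiples, and larger totals can allow smaller lengths. Both genes have repeated rows, 3 for Cd247 and 2 for Lck. An RPKM falls as the length counted grows. Exons annotated to Cd247 overlap 3007 bases of exons of Pou2f1, the gene of the transcription factor OCT1 on the opposite strand, which was at 4.76 RPKM in naive CD4 and 3.31 RPKM in naive CD8 cells. The strand setting of the counting is not given, so reads of the 2 genes cannot be told apart in the shared bases. Opposite-strand exons also overlap 135 bases of Cd3e (Gm48719) and 282 bases of Lcp2 (4930469K13Rik), where the same holds. Within-library placing of Cd247 below Cd3e and Cd3d is therefore uncertain. Its CD4 over CD8 ratio uses the same length in both libraries, but reads of Pou2f1 in the shared bases could enter it. Their part in that ratio, and in the ratios of ratios that hold Cd247, was not tested.

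Of the kinases, Lck was the highest, the second of the 9 genes. It was at 585 RPKM in naive CD4 and 545 RPKM in naive CD8 cells, a ratio of 1.07 (1.06 to 1.09). Fyn was at 118 RPKM in naive CD4 and 106 RPKM in naive CD8 cells, a ratio of 1.11 (1.02 to 1.22). Lck thus stood at 4.97 times Fyn in CD4 and 5.16 times in CD8, and the interval of the ratio of these ratios, 0.880 to 1.05, holds 1. That interval rests on the fewest reads allowed for Fyn and can be wider than the true reads give. Zap70 lay toward CD8, at 134 RPKM in naive CD4 and 151 RPKM in naive CD8 cells, a ratio of 0.886 (0.858 to 0.915). The Lck transcript stood at 4.38 times Zap70 in CD4 and 3.61 times in CD8, a ratio of ratios of 1.21 (1.17 to 1.26).

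The scaffold adaptors both lay toward CD4 and kept the same proportion. Lat, the membrane scaffold, was at 472 RPKM in naive CD4 and 412 RPKM in naive CD8 cells, a ratio of 1.15 (1.12 to 1.17). Lcp2, whose product binds LAT through the adaptor GADS, was at 86.3 RPKM in naive CD4 and 77.4 RPKM in naive CD8 cells, a ratio of 1.11 (1.08 to 1.15). Lat stood at 5.46 times Lcp2 in CD4 and 5.31 times in CD8, a ratio of ratios of 1.03 (0.986 to 1.07). Relative to Lat, Zap70 stood at 0.283 in CD4 and 0.367 in CD8, a ratio of ratios of 0.773 (0.742 to 0.805). In all, 8 of the 36 pairs had an interval that holds 1, Fyn with Lcp2 (0.910 to 1.10) and Cd247 with Lat (0.987 to 1.06) among them. The reads of Fyn rest on a smallest length of 367 bases, against 3562 for its longest transcript, and those of Cd3d on 265 against 1617. Intervals of pairs with either gene can therefore be wider than the true reads give, and holding 1 does not show a kept proportion.

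The order of levels was the same in both libraries except for 2 neighbours. From high to low it was Cd3g, Lck, Lat, Cd3d, Cd3e, Zap70, Fyn, Cd247 and Lcp2 in CD4, and in CD8 Zap70 stood before Cd3e. The counting intervals of Zap70 and Cd3e overlapped in CD8, and those of Fyn and Cd247 overlapped in both libraries. The intervals of Fyn rest on the fewest reads allowed and can be wider than the true reads give. By counting error alone, every other pair of neighbours was apart. The order between genes also rests on the length counted for each gene, which is not given. The widest step was that between Lat and Cd3d, 2.68-fold in CD4 and 1.91-fold in CD8. The genes nearest to the median level of the 9 in the 2 libraries, by distance on the log2 scale, were the phosphatase subunit gene Ppp4c, the ferritin gene Fth1 and the proteasome gene Psma2, at 136 to 146 RPKM in CD4 and 148 to 149 RPKM in CD8. With only 2 libraries this likeness is one of level alone.

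**Figure D2:**
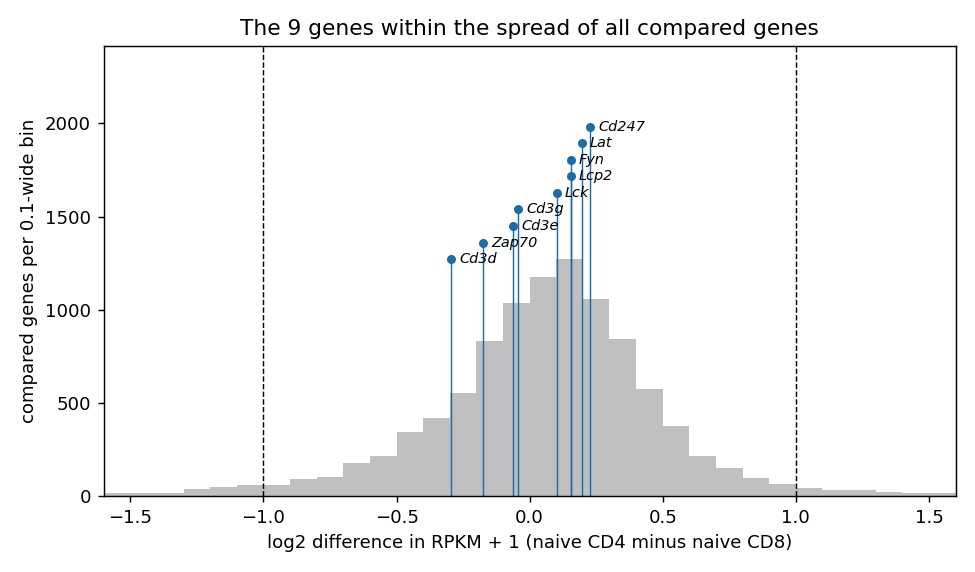
Distribution of the log2 difference (naive CD4 minus naive CD8, RPKM + 1) over the compared genes between -1.6 and 1.6, in bins of 0.1, with the 9 genes as blue stems (stem height only separates the names). The dashed lines mark a difference of 1 in either direction, and all 9 genes lie between -0.29 and 0.23.

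Counting error was narrower than these differences for all 9 genes, but the choice of scaling put 3 of them on either side of 0. By the ratios as deposited, 5 genes were above 1 (Cd247, Lat, Fyn, Lcp2 and Lck) and 4 below it (Cd3d, Zap70, Cd3e and Cd3g), each with an interval that leaves out 1. In log2 difference, 55.6% of the 9 thus lay above 0, beside 59.5% of all compared genes. An interval that leaves out 1 is common at this depth. Among the 751 compared genes of at least the mean level of Lcp2 whose reads could be recovered, the interval held 1 in 14.0%. The deposited RPKM summed to 457587 in CD4 and 530342 in CD8. When both libraries were rescaled to a sum of 1000000, the median difference of genes at 1 RPKM or more in both moved by 0.21, and Zap70 (0.04), Cd3e (0.15) and Cd3g (0.17) then lay above 0. That rescaling also moved the share of calls that were higher in CD4, over all compared genes, to 64.5%, against 44.0% as deposited, and rescaling over protein-coding symbols only moved it to 54.5%. Cd3d stayed below 0 under all 9 alternatives tried, between -0.37 and -0.08, and Cd247, Lat, Fyn, Lcp2 and Lck stayed above 0. Cd247 lay between 0.15 and 0.44, and the lowest values were 0.12 for Lat, 0.04 for Fyn and Lcp2 and 0.02 for Lck. A changed pseudocount cannot change a sign and a changed filter cannot change the value of a member, so only the scalings and centrings bear on this. In a sorted bulk sample a difference in the share of cells that express a gene and one in RNA per cell cannot be told apart.

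**Figure D3:**
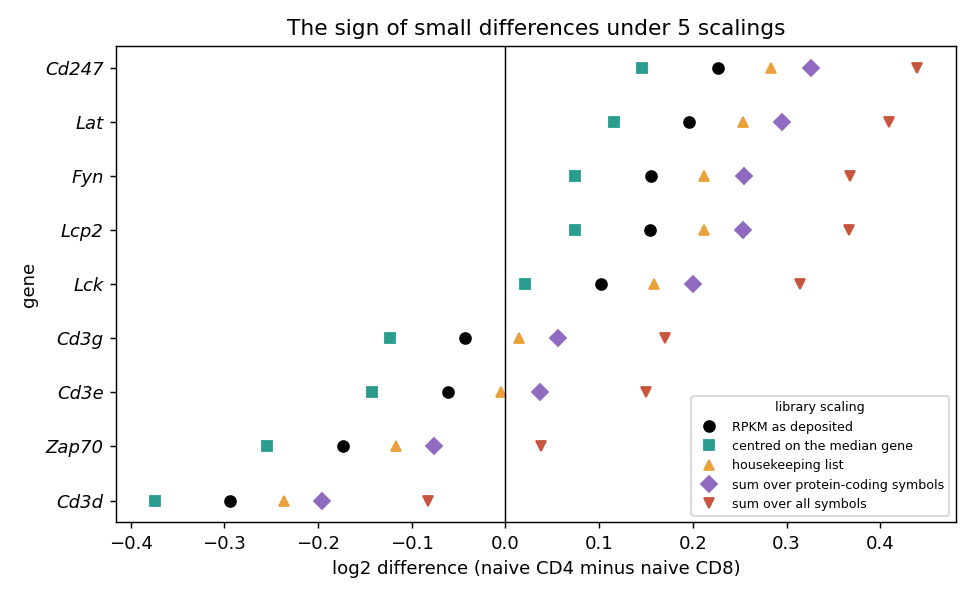
Log2 difference (naive CD4 minus naive CD8, RPKM + 1) of each of the 9 genes under 5 scalings of the libraries, with a line at 0. Cd3d lies below 0 and Cd247, Lat, Fyn, Lcp2 and Lck above 0 under all 5, while Cd3g, Cd3e and Zap70 lie on both sides.

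The T cell kinases and adaptors were far above their relatives in both libraries. Lck and Fyn together made up 99.8% of the summed RPKM of the 8 Src family genes measured in CD4 and 99.6% in CD8. Zap70 made up 99.7% of the pair it forms with Syk, its counterpart in B cells and myeloid cells, in CD4 and 99.8% in CD8. Syk itself was at 0.377 RPKM in naive CD4 and 0.263 RPKM in naive CD8 cells. Lat2, the LAT relative of B cells and mast cells, was at 0.730 RPKM in naive CD4 and 0.981 RPKM in naive CD8 cells. Blnk, the B cell counterpart of SLP-76, was listed at 0 in CD4 and at 0.0806 RPKM in CD8, and Clnk was listed at 0 in both. The myeloid Src kinase gene Fgr was at 0.413 RPKM in naive CD4 and 1.78 RPKM in naive CD8 cells, a difference of -0.97. Its ratio as deposited was 0.232 (0.155 to 0.340), and at this level the added 1 RPKM makes the difference smaller. Fcer1g, the ITAM chain of Fc receptors, was at 0.433 RPKM in naive CD4 and 0.706 RPKM in naive CD8 cells. Of the 14 relatives, 2 reached the filter and 1 passed the size rule, toward CD8, where 3.07% of all compared genes passed. It was Cd79b, an ITAM chain of the B cell receptor, at 2.14 RPKM in naive CD4 and 28.8 RPKM in naive CD8 cells, a ratio of 0.0741 (0.0564 to 0.0958). Its partner chain gene Cd79a was at 0.306 RPKM in naive CD4 and 0.317 RPKM in naive CD8 cells.

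**Figure D4:**
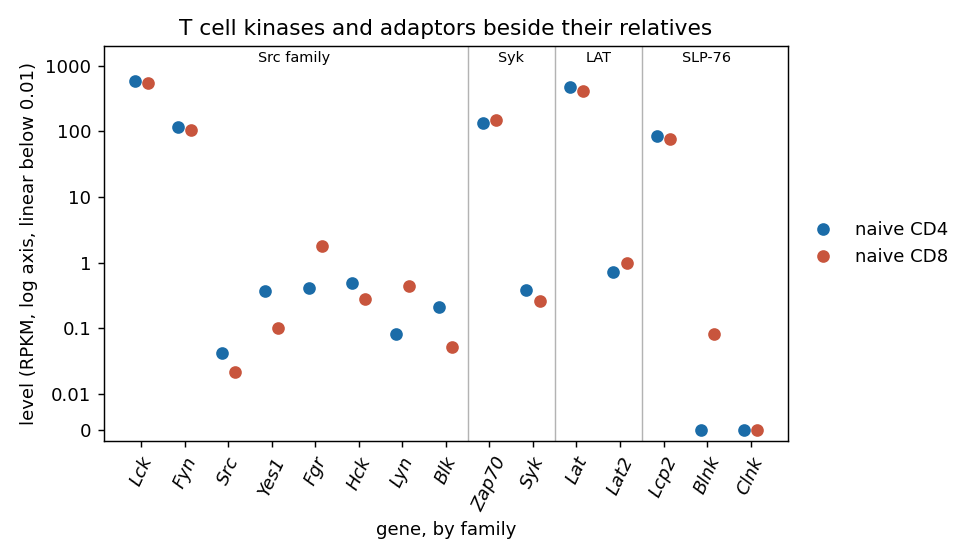
Level (RPKM, log axis, linear below 0.01) of the Src, Syk, LAT and SLP-76 family genes in naive CD4 (blue) and naive CD8 (red) cells, 1 library each. Lck, Fyn, Zap70, Lat and Lcp2 lie above 77 RPKM and each of their relatives below 2 RPKM.

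Most other genes of the pathway differed by less than 2-fold, as did most compared genes, of which 5.48% passed the size rule. The coreceptors, which bring Lck to the receptor and by which the cells were sorted, were Cd4 (305 RPKM in CD4 and 8.89 in CD8), Cd8a (2.50 in CD4 and 518 in CD8) and Cd8b1 (21.4 in CD4 and 788 in CD8). The list of partners of LAT and SLP-76 is a broad one and also holds genes tied to the TCR itself, such as Trat1. Of its 29 genes, 27 were compared. The size rule was passed by 1 toward CD4 and by 0 toward CD8. Of all compared genes, 2.41% passed toward CD4 and 3.07% toward CD8. The median difference of the 27 was 0.20, with 77.8% above 0 (21 genes, and 6 below), beside 59.5% of all compared genes. The 1 was Trat1, the gene of the TCR-associated adaptor TRIM, at 141 RPKM in naive CD4 and 33.5 RPKM in naive CD8 cells, a ratio of 4.20 (3.68 to 4.81). Among the genes of this list at high levels were Grap2, which encodes GADS (176 in CD4 and 167 in CD8), and Skap1 (159 in CD4 and 116 in CD8). The cytoskeletal adaptor gene Hcls1 was another (146 in CD4 and 132 in CD8). Grap2 stood close to 1, with a ratio of 1.05 (1.03 to 1.08).

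Of 20 genes on the list of brakes on Lck and ZAP-70, which holds phosphatases, ubiquitin ligases and inhibitory receptors, all 20 were compared. The size rule was passed by 1 toward CD4 and by 0 toward CD8, beside the same 2.41% and 3.07% of all compared genes. The median difference was 0.19, with 15 above 0 and 5 below, or 75.0% above 0 beside 59.5% of all compared genes. The 1 was Cd5, an inhibitory receptor, at 289 RPKM in naive CD4 and 120 RPKM in naive CD8 cells, a ratio of 2.42 (2.32 to 2.52). Ptprc, the phosphatase CD45, which both activates and restrains Lck, was the highest, at 580 RPKM in naive CD4 and 592 RPKM in naive CD8 cells. Its ratio was 0.980 (0.971 to 0.990). Cd6, a receptor related to CD5, was at 204 RPKM in naive CD4 and 136 RPKM in naive CD8 cells, and Ptpn6, the phosphatase SHP-1, at 199 RPKM in naive CD4 and 180 RPKM in naive CD8 cells. The list medians lay above that of all compared genes, 0.08, as did that of the scaffold adaptors, 0.18, while that of the CD3 chains was -0.05.

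**Figure D5:**
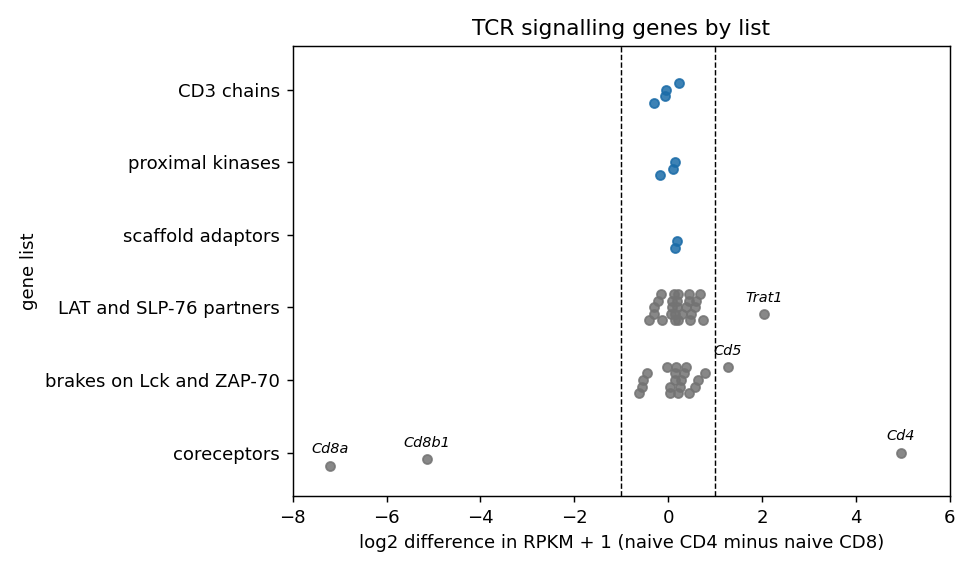
Log2 difference (naive CD4 minus naive CD8, RPKM + 1) of each compared gene by list, with the 9 genes in blue and other pathway genes in grey, spread vertically for legibility. Dashed lines mark a difference of 1 in either direction, past which lie the coreceptors, Trat1 and Cd5.

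Marker lists of other cells were low in both libraries, beside members at 77.4 RPKM or more. The 8 B cell markers summed to 4.03 RPKM in naive CD4 and 30.3 RPKM in naive CD8 cells, and to 1.89 RPKM in naive CD4 and 1.46 RPKM in naive CD8 cells without Cd79b. The 9 NK cell markers summed to 2.78 RPKM in naive CD4 and 15.4 RPKM in naive CD8 cells, mostly Eomes, a factor that CD8 T cells also use (1.83 RPKM in naive CD4 and 12.6 RPKM in naive CD8 cells). Without Eomes they summed to 0.946 RPKM in naive CD4 and 2.73 RPKM in naive CD8 cells, of which Klrb1c, the gene of the marker NK1.1, made up 0.0308 RPKM in naive CD4 and 1.36 RPKM in naive CD8 cells. Klra4 and Klra8 were listed at 0 in both. The 11 myeloid markers measured summed to 14.9 RPKM in naive CD4 and 12.2 RPKM in naive CD8 cells, with Cd14 listed at 0 in both. Of the 7 compared, 1 passed the size rule toward CD4 and 1 toward CD8, beside 2.41% and 3.07% of all compared genes. They were Fcgr3 (4.86 RPKM in naive CD4 and 1.21 RPKM in naive CD8 cells) and S100a8 (0.520 RPKM in naive CD4 and 2.48 RPKM in naive CD8 cells). The 4 measured gamma delta T cell markers and the 7 erythroid and platelet markers each summed to under 1 RPKM in either library. NK cells also transcribe Cd247, Lck, Fyn, Zap70, Lat and Lcp2. The part of such cells in the differences was not tested. The smallest library totals that the values allow were 24741945 reads for CD4 and 23853921 for CD8, and each of the 9 genes had at least 924 reads in each library.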

How the data were processed

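RNA-seq values are RPKM that the authors made and deposited, 1 value per symbol and library, without replicates. Per the submitters' processing notes, TopHat, HTSeq and the build mm9 were used. Annotation, strand setting and treatment of reads with several places are not stated. The 26882 rows of each file hold 23167 symbols, and repeated rows are identical and were counted once (Cd247 has 3 rows and Lck 2).

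Differences are log2 of CD4 over CD8 after 1 RPKM was added to each value, for genes at 1 RPKM or more in at least 1 library. Library totals and whole reads were recovered from the RPKM as the smallest that the values allow (the true ones can be whole multiples), so intervals are not narrower than the true reads give. Of 12735 genes above 0 in both libraries, 12729 came out whole to the digits printed (9 decimals or 10 significant), all 9 members included, and 0.314% of every 10th gene did with the CD8 total moved by 1000 reads. Intervals for ratios are exact (Clopper-Pearson, 95%), those for levels exact Poisson, and those for ratios of ratios normal on the log scale. The recovery of library totals and reads and the size rule were tested on simulated data, and the intervals were not.

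The members and lists were chosen with earlier results of these data known. Named are the 9 members, the coreceptors, from 3 other lists each gene past the size rule and the 4 highest by mean RPKM, and the 3 genes nearest in level; 1 gene that the rule names is not reported here. Every other gene named was chosen after its values were seen. Promoters were matched by symbol in RefSeq (GRCm38.p6, all 9 members, 12 windows), and exon overlaps were taken from GENCODE M21. Python 3.11.15, numpy 2.4.6, pandas 2.3.3 and scipy 1.17.1 were used.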

Additional observations from a re-analysis of the deposited data

How the results depend on the processing

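The count of members past the size rule was 0 under all 9 alternatives. It had little room to change, because the filters leave the members' values as they are. The largest member difference was 0.29, and the largest shift of the median gene was 0.21. The 6 alternatives that can be applied to the order of levels scale a whole library or add a constant, so by construction they cannot reorder it. The median difference of the 9 members, 0.10 as deposited, was 0.021 when centred on the median gene, 0.31 with both libraries rescaled to a sum of 1000000 and 0.16 with the housekeeping list. It was 0.20 with the sum taken over protein-coding symbols and 0.040 when centred on genes of like length, both chosen after seeing the data. The share of compared genes past the size rule, 5.48%, was 8.70% with a pseudocount of 0.1 RPKM (428 genes toward CD4 and 462 toward CD8), 1.94% with a pseudocount of 5 RPKM (73 and 125) and 2.42% with no filter, where 247 and 314 genes were set against all symbols. On the lists of coreceptors, partners, brakes and relatives, 3, 27, 20 and 2 genes were compared. As deposited 6 passed: the 3 coreceptors by which the cells were sorted, Cd79b, Cd5 and Trat1. After rescaling to a sum of 1000000, 8 passed, with Fgr and Sit1 added, beside 7.84% of all compared genes. Fgr also passed with a pseudocount of 0.1 RPKM and with the sum over protein-coding symbols. It did so as well when centred on the median gene or on genes of like length. No paired analysis was possible because each group has 1 library. Depth limits the relatives, of which Syk had at least 49 reads in CD4 and 33 in CD8.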

Other observations

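Some pairs of related genes of the pathway stood in different proportions in the 2 libraries, and others did not. The pairs were picked after their values were seen, none of their genes passed the size rule, and the ratios within a library do not depend on scaling. Nck2 and Nck1 encode adaptors that can bind CD3 epsilon. Nck2 was at 26.9 RPKM in naive CD4 and 15.8 RPKM in naive CD8 cells, and Nck1 at 24.4 RPKM in naive CD4 and 30.2 RPKM in naive CD8 cells. Nck2 stood at 1.11 times Nck1 in CD4 and 0.523 times in CD8, a ratio of ratios of 2.11 (95% counting interval 1.89 to 2.37). Dok2 and Dok1 encode inhibitory adaptors. Dok2 was at 41.9 RPKM in naive CD4 and 26.6 RPKM in naive CD8 cells, and Dok1 at 11.8 RPKM in naive CD4 and 18.7 RPKM in naive CD8 cells, a ratio of ratios of 2.49. Grap, a relative of the adaptor gene Grb2, was at 143 RPKM in naive CD4 and 95.02 RPKM in naive CD8 cells. Grb2 was at 16.7 RPKM in naive CD4 and 19.5 RPKM in naive CD8 cells, and the ratio of ratios was 1.75. Sla2 over Sla, for a pair of inhibitory adaptors, had a ratio of ratios of 0.649 (0.608 to 0.693). The exchange factor genes Sos2 over Sos1 had one of 1.17 (1.03 to 1.33). For the ubiquitin ligase genes Cblb over Cbl it was 0.925 (0.834 to 1.03) and for Ubash3b over Ubash3a 0.924 (0.850 to 1.01), and both intervals hold 1. No replicate bears on these values.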
